A study of Mus musculus with 6 samples.

Results

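The 53 annotated segments of the mouse T cell receptor (TCR) beta locus were followed in naive CD4 T cells with and without a Cre transgene aimed at Cmtr1. They were every gene whose GENCODE vM21 symbol begins with Trbv, Trbd, Trbj or Trbc, which gave 35 variable (Trbv), 2 diversity (Trbd), 14 joining (Trbj) and 2 constant (Trbc) genes among the 46983 genes in the files. Both groups were male mice homozygous for the floxed allele (Cmtr1 fl/fl). The 2 control libraries came from mice negative for CD4cre, and the 4 libraries labelled Cmtr1 cKO came from mice carrying it, so that the allele could be recombined in the T lineage. Ages were not stated in the labels. CD4cre is active in thymocytes and recombines the allele in CD4 and CD8 T cells alike. Cells had been sorted from lymph nodes as TCRb+, CD4+, CD62L+, CD44- and DAPI-, so the gate required a TCR beta chain at the surface. CMTR1 is the methyltransferase that modifies the ribose of the first transcribed nucleotide beside the mRNA cap, and the series asks how the naive CD4 transcriptome depends on it.

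A TCR beta gene is assembled in the thymus: a D segment is joined to a J segment, a V segment is then joined to that DJ, and the constant region is attached by RNA splicing. The locus holds a pair of D-J-C clusters in tandem, so that Trbd1, the Trbj1 segments and Trbc1 precede Trbd2, the Trbj2 segments and Trbc2. The V, D and J joint forms the third complementarity-determining region, the loop that contacts the peptide, and a naive population carries a very large number of different joints. V use in bulk RNA is therefore a property of the whole pool of cells, and fewer cells using a segment cannot be told apart from less RNA of that segment per cell.

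The segments that the results turn on are printed here from the annotated transcripts (GENCODE vM21, GRCm38), so that the short units counted as genes can be seen. The D segments are the shortest of them, at 12 and 14 bases. In the J segments, capitals mark 4 triplets in a row, TTN, GGN, any triplet and GGN, a search for the phenylalanine-glycine motif that follows the joint in most J segments.
Trbd1, chr6:41533201-41533212, + strand: gggacagggggc
Trbd2, chr6:41542163-41542176, + strand: gggactgggggggc
Trbj1-1, chr6:41533864-41533911, + strand: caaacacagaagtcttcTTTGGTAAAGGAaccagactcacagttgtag
Trbj1-3, chr6:41534323-41534372, + strand: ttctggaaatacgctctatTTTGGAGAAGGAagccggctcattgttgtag
Trbj1-4, chr6:41534811-41534861, + strand: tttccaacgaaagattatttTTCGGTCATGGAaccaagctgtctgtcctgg
Trbj1-6, chr6:41535554-41535606, + strand: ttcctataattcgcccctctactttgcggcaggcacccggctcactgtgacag
Trbj1-7, chr6:41535642-41535687, + strand: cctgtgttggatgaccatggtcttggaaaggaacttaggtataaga
Trbj2-1, chr6:41542754-41542803, + strand: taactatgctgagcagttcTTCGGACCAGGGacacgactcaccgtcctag
Trbj2-7, chr6:41543810-41543856, + strand: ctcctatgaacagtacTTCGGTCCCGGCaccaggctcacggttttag
The motif was found on the segment's own strand in 11 of the 14 Trbj segments and on the other strand in 0 of them. It was present on the own strand in 1.19% of the first 50 bases of 141672 annotated transcripts. Trbj1-6, Trbj1-7 and Trbj2-6, which is annotated as a pseudogene, do not hold these letters.

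For the V segments, whose annotated transcripts are much longer, the last 30 bases are shown, where the joint is made. Capitals mark TGTGC, the letters around the conserved cysteine codon that opens the third complementarity-determining region. The segments are Trbv2, Trbv30 and Trbv31, whose use did not overlap between the groups, with the pairs of family members whose shares moved in opposite directions. Trbv1 and Trbv16, whose use did not overlap either, are not printed.
Trbv2, chr6:41047966-41047995, + strand: ggccacatacttcTGTGCcagcagccaaga
Trbv12-1, chr6:41114038-41114067, + strand: tctgctatgtacttcTGTGCcagctctctc
Trbv12-2, chr6:41119335-41119364, + strand: tctgccgtgtacttcTGTGCcagctctctc
Trbv13-2, chr6:41121803-41121832, + strand: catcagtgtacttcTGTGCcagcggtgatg
Trbv13-3, chr6:41130556-41130585, + strand: cagctgtatatttcTGTGCcagcagtgatg
Trbv30, chr6:41281961-41281990, + strand: cagcagtatctatttctgtagttctagaga
Trbv31, chr6:41557693-41557722, - strand: ctctggcttctacctcTGTGCctggagtct
TGTGC was present in 19 of the 22 segments annotated as TR_V_gene and in 7 of the 13 annotated as TR_V_pseudogene, against 3.10% of the last 30 bases of all annotated transcripts on their own strand. It was found on the other strand in 0 of these segments. Among the segments annotated as TR_V_gene, Trbv1, Trbv20 and Trbv30 do not hold it. The printed stretches of Trbv12-1 and Trbv12-2 are nearly the same, and over the whole transcripts these segments were identical at 88.3% of aligned bases. Trbv13-2 and Trbv13-3 were identical at 90.6%, differing at 32 of 340 positions. All members lie within 667.224 kb of chromosome 6, and Trbv31 is the only V segment on the minus strand, downstream of Trbc2.

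The libraries held 9513874 (Cmtr1 cKO 3) to 11949838 (control 1) reads assigned to genes, and every mean ± SD covers 2 control (n = 2) or 4 Cmtr1 cKO (n = 4) libraries. Of the uniquely mapped reads, the percentage that fell outside annotated exons varied. It was 37.2% and 34.0% in control 1 and 2, and 52.3%, 51.6%, 46.7% and 38.0% in Cmtr1 cKO 1 to 4, so that Cmtr1 cKO 4 lay within 1 percentage point of control 1. Cmtr1 cKO 3 stood apart in the ratio of own-strand to other-strand reads (5.57, against 18.7 to 22.7 elsewhere) and in reads that overlapped several genes (4.83% of unique reads, against 0.755% to 1.09%). The whole-gene level of Cmtr1, in CPM (read counts divided by library size and TMM factor), was 11.2 in control 1, 11.4 in control 2 and 16.0, 19.8, 14.6 and 7.57 in Cmtr1 cKO 1 to 4. Its log2 difference of 0.36 ± 0.31 (SE) was not called (edgeR quasi-likelihood test, adjusted p = 0.461). The labels do not name the floxed exons, a count over the whole gene therefore cannot test the genotypes, and directions follow the labels throughout.

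Sorted identity was read from marker lists. Cd4 stood at 776 and 755 CPM in control 1 and 2 and at 793 to 864 CPM in Cmtr1 cKO, while Cd8a, which marks the other T cell lineage, stayed between 0.635 and 4.72 CPM in the 6 libraries. Of the thymocyte markers, Rag2 and Ptcra were at 0 in all libraries, Rag1 was at 0 in 5 of 6, and Dntt, the terminal transferase, was present in each at 8.84 to 13.6 CPM. B cell markers were present and differed, with a summed level of 363 and 375 CPM in control 1 and 2 against 279 to 312 CPM in Cmtr1 cKO, most of it Ighm, the immunoglobulin heavy constant gene. Ighm fell by 0.35 ± 0.07 (SE) on the log2 scale (edgeR adjusted p = 0.0105), and the part of these cells in the results on the TCR beta locus was not tested. Of the markers tested for CD8 T cells (2), gamma delta T cells (2), regulatory T cells (4), myeloid cells (3), thymocytes (1) and red cells (1), 0 were called by edgeR. Both CD8 markers, Trdc and Lyz2 had an unadjusted p under 0.05, and DESeq2 called 1 myeloid marker. The CD8 markers summed to 28.7 and 23.6 CPM in control 1 and 2 and to 17.0 to 21.3 CPM in Cmtr1 cKO. Of the NK cell markers 0 had enough counts to be tested.

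Constant region reads were the main product of the locus. Trbc1 and Trbc2 together took 13158 and 11746 reads in the controls and 11041 to 14910 in Cmtr1 cKO, and the V segments took 5324 and 4699 against 4222 to 5611. The D segments are the source of the fewest reads, 204 to 293 per library. A read is counted only when it overlaps the exons of a single gene, so a read aligned across a V-J joint or a J-C splice is in no member's count. A read whose end was clipped in alignment can be counted for 1 segment alone, and such reads were not examined. The J counts were 1028 and 909 in the controls and 1006 to 1418 in Cmtr1 cKO.

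Reads over J segments were more frequent in Cmtr1 cKO relative to V reads and to C reads, most of all in Cmtr1 cKO 1 and 2. There were 19.3 Trbj reads per 100 Trbv reads in each control. Cmtr1 cKO 1, 2, 3 and 4 had 32.0, 30.4, 23.8 and 21.1. The groups did not overlap, but Cmtr1 cKO 4 was close to the controls, and the group means were 19.3 ± 0.025 (SD) and 26.8 ± 5.2 (SD). Per 100 Trbc reads, the J counts were 7.81 and 7.74 in the controls and 11.8, 11.0, 9.11 and 7.95 in Cmtr1 cKO 1 to 4. V reads per 100 C reads went the other way, from 40.5 and 40.0 in the controls to 36.8, 36.2, 38.2 and 37.6 in Cmtr1 cKO.

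The libraries were in nearly the same order by J reads as by reads outside exons. In the TCR alpha locus, which also recombines V with J and carries 60 annotated Traj segments, the Traj reads per 100 Trav reads were 166 and 145 in the controls and 369, 335, 259 and 162 in Cmtr1 cKO 1 to 4. There the groups did overlap, since Cmtr1 cKO 4 lay between the controls.

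**Figure D1:**
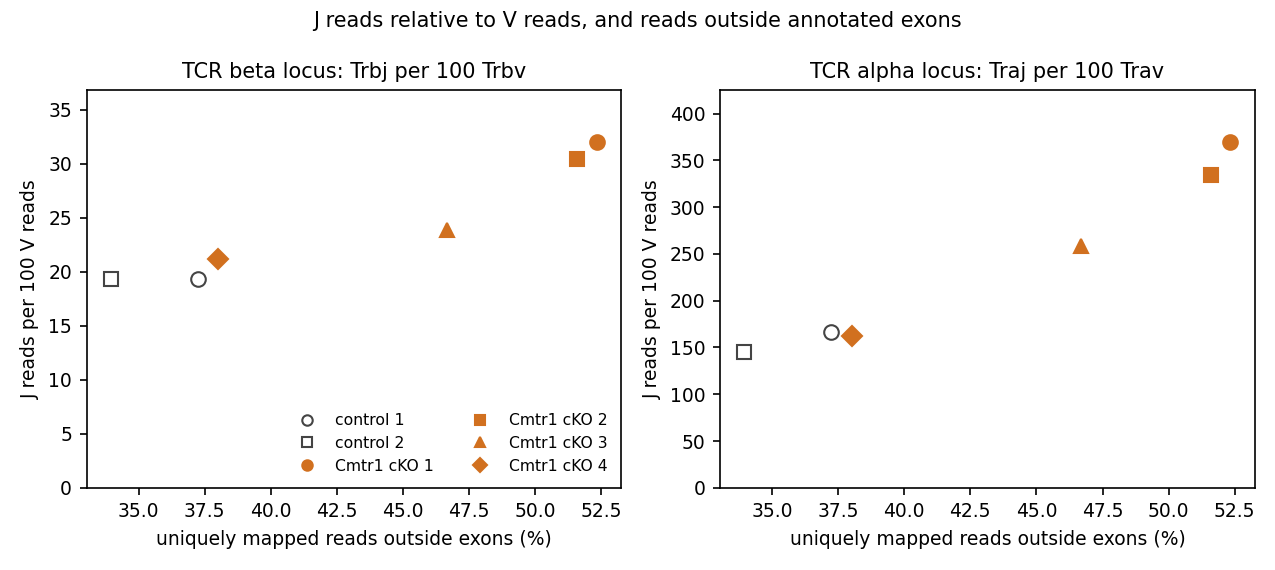
J reads per 100 V reads (vertical axis) against the percentage of uniquely mapped reads outside annotated exons (horizontal axis), 1 point per library, for the beta locus (left) and the alpha locus (right). Cmtr1 cKO 1 and 2 have the highest values on both axes, and Cmtr1 cKO 4 (38.0% outside exons, 21.1 Trbj per 100 Trbv reads) lies beside control 1 (37.2% and 19.3).

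Gene by gene, the Trbj1 segments carried the larger part of this difference. In edgeR's quasi-likelihood test over all genes, 39 of the 53 members had enough counts to be tested, and the 14 others were Trbv segments with 0 to 11 reads per library. Of those tested, 2 were called higher in Cmtr1 cKO (adjusted p under 0.05) and 1 lower. Over all 12748 genes tested, 4.66% were called higher and 6.77% lower (11.4% in either direction), so the members were called no more often than other genes. Both of the segments called higher were Trbj1 segments and the segment called lower was Trbv30. With the called members, 12 of 39 had an unadjusted p under 0.05, beside 30.9% of all genes tested, so this count stands near the background.

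Trbj1-4 (ENSMUSG00000076486), the most abundant J segment in the reads of every library, stood at 9.97 and 11.5 CPM in control 1 and 2 and at 18.8, 19.2, 15.3 and 14.4 CPM in Cmtr1 cKO 1 to 4. All 4 Cmtr1 cKO libraries were above both controls, by 0.66 ± 0.16 (SE) on the log2 scale (adjusted p = 0.0244). Trbj1-6 (ENSMUSG00000076488), one of the segments without the searched motif, went from 8.92 and 8.25 CPM to 14.4, 12.1, 12.0 and 11.4 CPM. Its groups did not overlap either, and it rose by 0.53 ± 0.15 (SE; adjusted p = 0.0455). This call was lost with DESeq2 (adjusted p = 0.071) and with unstranded counts (0.0711). Over all the alternatives tried, its adjusted p ran from 0.00246 to 0.401. The low end came from the replicate block, a fit that compares only control 1 and 2 with Cmtr1 cKO 1 and 2.

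Trbj1-3, Trbj1-5 and Trbj1-7 had no call by edgeR, but their groups did not overlap. Trbj1-3 went from 9.44 and 8.25 CPM to 17.5, 14.5, 11.4 and 11.6 CPM in Cmtr1 cKO 1 to 4 (log2 difference 0.64 ± 0.19, SE, adjusted p = 0.0537), and DESeq2 did call it. Trbj1-5 was the steadiest of them, with 7.69 and 9.81 CPM against 12.1, 12.2, 12.1 and 11.9 CPM (0.47 ± 0.15, adjusted p = 0.0629). Trbj1-7, which lies directly after Trbj1-6, had the largest positive difference of any tested member, 0.75 ± 0.23 (adjusted p = 0.0593), from 4.55 and 5.63 CPM to 10.3, 9.98, 7.62 and 6.28 CPM. The first 2 segments of the cluster, nearest to Trbd1, stood apart from these, with log2 differences of -0.03 ± 0.22 for Trbj1-1 and 0.21 ± 0.20 for Trbj1-2 and overlapping groups.

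The Trbj2 segments differed less, and 0 of 7 were called by edgeR or by DESeq2 or had an unadjusted edgeR p under 0.05. Their log2 differences ran from -0.06 (Trbj2-5, the J segment with the fewest counted reads) to 0.37 (Trbj2-6), and the groups overlapped for each. Trbj2-7 had 7.26 and 7.87 CPM in control libraries and 6.54 to 9.61 CPM in Cmtr1 cKO. Over the 14 Trbj segments the median log2 difference was 0.27 and 11 were positive, while the median over all genes tested was -0.00047. Groups were apart for 5 Trbj segments, all higher, where 18.2% of all genes tested were higher without overlap.

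**Figure D2:**
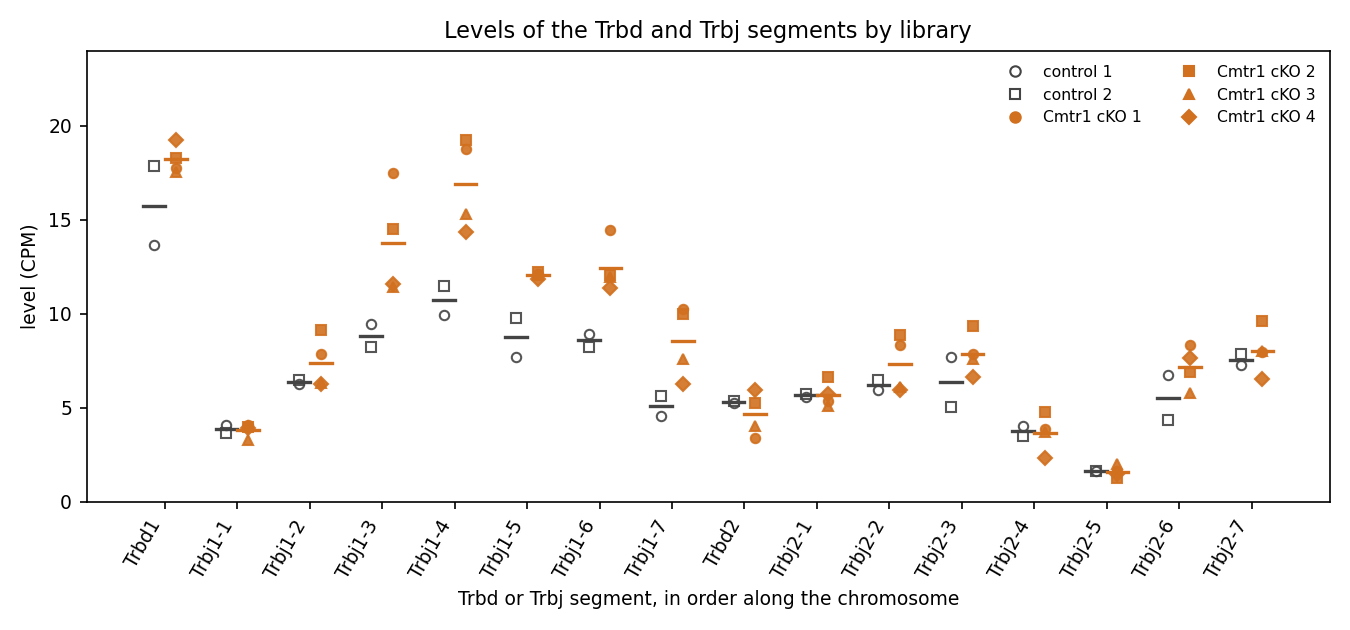
Level (CPM) of each Trbd and Trbj segment in order along the chromosome, with open symbols for the 2 controls, filled symbols for the 4 Cmtr1 cKO libraries and short lines for group means. From Trbj1-3 to Trbj1-7 every Cmtr1 cKO point lies above both control points, while the Trbj2 segments overlap between groups.

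These calls depended on which libraries were used. Without control 1 or control 2, 1 control is left, so only sizes are read from those fits. Without Cmtr1 cKO 2, 0 members were called, without Cmtr1 cKO 1 only Trbv2, and without Cmtr1 cKO 3 only Trbj1-4. Calls over all genes fell as well. With all libraries, 594 genes were called higher and 863 lower. Without Cmtr1 cKO 1, 2 and 3 they numbered 272, 228 and 222 higher and 472, 435 and 384 lower. Without Cmtr1 cKO 4, the library nearest to the controls in reads outside exons, 11 members were called: the 5 segments from Trbj1-3 to Trbj1-7 and Trbv2 higher, and Trbv1, Trbv3, Trbv13-3, Trbv16 and Trbv30 lower. In that fit 30.8% of all genes tested were called, so this count too stands near the background. The sizes moved less, from 0.57 to 0.78 for Trbj1-4 and from 0.46 to 0.60 for Trbj1-6 over the 6 omissions. With the outside-exon percentage as a covariate, the median of the Trbj segments was -0.04 and 0 were called. Calls over all genes fell to 320 higher and 346 lower. That percentage was higher in every Cmtr1 cKO library than in both controls, so the fit cannot fully separate it from genotype. In this fit Trbj1-4 was at 0.35 (edgeR adjusted p = 0.326). Over all the alternatives tried, its adjusted p ran from 1.17e-06, with the replicate block, to 0.326.

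The balance of counted J reads between the clusters also differed, in the direction of the first. Trbj1 segments took 56.7% (95% Wilson interval 53.7 to 59.7) and 60.7% (57.5 to 63.8) of Trbj reads in the controls. In Cmtr1 cKO 1, 2, 3 and 4 they took 66.2% (63.7 to 68.7), 63.1% (60.6 to 65.6), 63.9% (60.9 to 66.8) and 64.4% (61.7 to 67.1). The groups did not overlap, although the interval of control 2 overlaps that of each Cmtr1 cKO library. The difference of 5.70 percentage points, from 58.7% ± 2.8 (SD) to 64.4% ± 1.3 (SD), was tested by exact two-sided permutation (p = 0.0667, the smallest p that the 15 splits of 2 against 4 libraries allow). Cmtr1 cKO 4 was as far from the controls in this share as the other Cmtr1 cKO libraries were, unlike in its J reads per V read. The clusters have nearly the same annotated length, 350 and 343 bases over 7 segments each, so dividing by it would change the shares little. Reads that overlap neighbouring segments are in no count, and the effect of the spacing of segments on these shares was not tested.

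In reads per 100000 gene counts, the Trbj1 cluster went from 4.92 ± 0.06 (SD) in control to 7.74 ± 1.2 in Cmtr1 cKO, and the Trbj2 cluster from 3.47 ± 0.36 to 4.27 ± 0.64. Within the J reads, the share of Trbj1-4 went from 11.1% and 13.0% to 14.6%, 14.9%, 14.4% and 14.1%, and that of Trbj1-3 from 10.5% and 9.35% to 13.6%, 11.3%, 10.7% and 11.4%. Shares of Trbj1-1, Trbj2-1, Trbj2-4 and Trbj2-7 were lower without overlap. Trbj2-1, the first segment of its cluster, went from 6.23% and 6.49% to 4.18%, 5.15%, 4.77% and 5.65%. Because the J total itself was higher in Cmtr1 cKO, counts divided by it were higher without overlap for 3.25% of all genes tested and lower for 56.5% (59.7% in either direction), and the 2 higher and 4 lower of 14 shares are read against those figures.

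The share of the first cluster's constant gene was also higher in Cmtr1 cKO than in control, within a narrower range. Trbc2 held the larger part of Trbc reads in every library. Trbc1 took 34.0% (95% Wilson interval 33.2 to 34.8) and 34.8% (33.9 to 35.7) of Trbc reads in the controls and 39.4% (38.5 to 40.3), 37.4% (36.5 to 38.2), 36.6% (35.7 to 37.5) and 35.0% (34.3 to 35.8) in Cmtr1 cKO 1 to 4. Cmtr1 cKO 4 was above control 2 by less than the counting error of either, and the Cmtr1 cKO libraries fell in the order of their reads outside exons. Means were 34.4% ± 0.56 (SD) and 37.1% ± 1.8 (SD), with p = 0.2 in the exact two-sided test by permutation. As levels, Trbc1 was at 391 and 397 CPM in control 1 and 2 and at 430, 437, 428 and 449 CPM in Cmtr1 cKO, a log2 difference of 0.15 ± 0.07 that was not called (edgeR adjusted p = 0.177). Trbc2 was at 759 and 744 CPM against 662, 733, 740 and 833 CPM, with a difference of -0.02 ± 0.10 (adjusted p = 0.916) and overlapping groups.

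Per length, Trbc2 was the more abundant of the constant genes in these reads, at 1077 against 564 CPM per kb over all libraries. The genes are close copies, identical at 87.15% of 677 aligned bases, and 40.5% of the 50-base stretches of Trbc1 and 44.0% of those of Trbc2 occur in the other gene. Reads within such stretches map to both places and are in neither count, so the shares rest on the parts that differ. The labels do not state the read length.

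Among the D segments, Trbd1 had 13.6 and 17.9 CPM in control 1 and 2 against 17.8, 18.3, 17.6 and 19.3 CPM in Cmtr1 cKO, with overlapping groups and no call (log2 difference 0.22 ± 0.13, edgeR adjusted p = 0.286). Trbd2 had 5.25 and 5.34 CPM against 3.43, 5.26, 4.02 and 5.94 CPM (-0.18 ± 0.24, adjusted p = 0.653). Trbd1 took 72.2% and 77.0% of Trbd reads in the controls and 83.8%, 77.7%, 81.4% and 76.5% in Cmtr1 cKO (p = 0.2 in the exact permutation test). The D shares rest on 204 to 293 reads per library, and control 1 and Cmtr1 cKO 1 were the only pair whose 95% intervals (65.9 to 77.8 and 78.5 to 88.0) did not overlap.

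**Figure D3:**
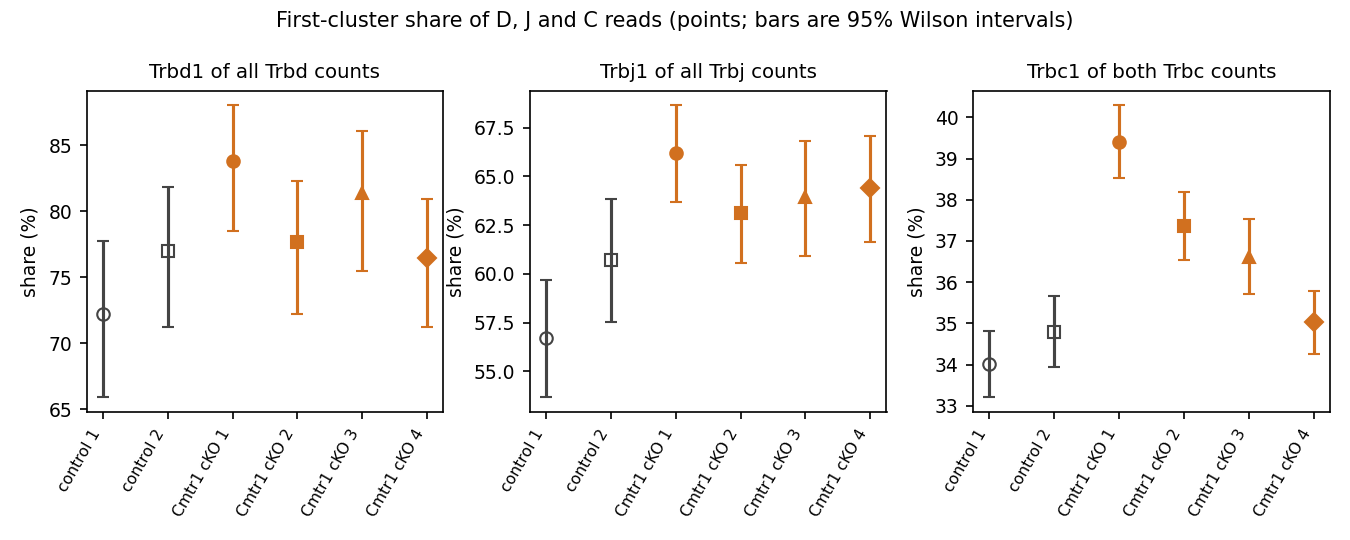
Share (%) of the first cluster among Trbd, Trbj and Trbc reads in each library, with 95% Wilson intervals as bars; the vertical axes do not start at 0. Trbj1 lies at 56.7% and 60.7% in the controls and at 63.1% to 66.2% in Cmtr1 cKO, and Trbc1 falls from 39.4% in Cmtr1 cKO 1 to 35.0% in Cmtr1 cKO 4, beside control 2 at 34.8%.

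V use was broad in both groups. The 17 Trbv segments that averaged at least 1% of Trbv reads held 97.8% of them. Trbv3 had the largest share in 5 of the 6 libraries, at 13.2% and 12.1% in the controls and 11.3%, 11.3%, 12.2% and 11.7% in Cmtr1 cKO, and only in Cmtr1 cKO 2 was Trbv2 ahead of it. Its groups overlapped. Per exon base, which is the fairer scale between segments of different length, Trbv3 and Trbv13-2 came first with 10.6% and 10.4% of the length-scaled total, in an order that differed between libraries, followed by Trbv15 with 9.97% and Trbv13-1 with 8.12%. Of the other 18 segments the highest mean share was 0.736%, and 8 of the 13 pseudogenes were at 0 in every library, which allows up to 3 counts in each.

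Use of 8 of these 17 segments did not overlap between the groups, 4 higher and 4 lower in Cmtr1 cKO. Among all genes tested, counts divided by the Trbv total were higher without overlap for 18.3% and lower for 14.6% (32.9% in either direction). Shares of 1 total are tied to each other, since a rise in 1 segment lowers the others.

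Trbv2 had the largest shift. It took 8.73% and 7.58% of Trbv reads in the controls and 10.5%, 11.5%, 10.8% and 10.7% in Cmtr1 cKO 1 to 4. Every Cmtr1 cKO library was above both controls and the Cmtr1 cKO libraries lay within about 1 percentage point of each other, with means of 8.16% ± 0.82 (SD) and 10.9% ± 0.45 (SD). The exact two-sided permutation test gave p = 0.0667, the smallest possible. The level of Trbv2 was higher by 0.34 ± 0.10 on the log2 scale, short of a call (edgeR adjusted p = 0.0559). With the outside-exon percentage as a covariate it was the only member called, at 0.46 (adjusted p = 0.0275, with 0.0139 to 0.362 over all the alternatives). As for the Trbj segments, that fit cannot fully separate the percentage from genotype.

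Trbv31, the inverted segment downstream of Trbc2, took 6.57% and 6.55% in the controls and 8.32%, 8.44%, 7.29% and 8.18% in Cmtr1 cKO (p = 0.0667, exact permutation test). This segment joins by inversion and not by deletion, and its controls were the closest to each other of any of the 17. Trbv12-1 went from 1.45% and 1.02% to 1.70%, 1.71%, 1.47% and 1.59% (p = 0.0667, exact permutation test), with control 1 only just below Cmtr1 cKO 3. Trbv13-2 went from 8.19% and 8.53% to 8.85%, 9.19%, 9.40% and 8.56% (p = 0.133, exact permutation test), with control 2 and Cmtr1 cKO 4 nearly equal.

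On the lower side, Trbv13-3 took 6.91% and 6.47% in the controls and 4.98%, 5.36%, 5.12% and 5.95% in Cmtr1 cKO. Trbv1, the segment farthest from the D-J-C clusters, went from 6.22% and 6.55% to 5.16%, 5.04%, 5.33% and 5.53%. Trbv16 went from 7.10% and 6.21% to 5.87%, 5.36%, 5.64% and 5.47%. For these segments all Cmtr1 cKO libraries were below both controls. Trbv12-2 went from 4.36% and 3.77% to 3.71%, 3.34%, 3.48% and 3.05%, so that control 2 and Cmtr1 cKO 1 nearly met. Each of these 4 had p = 0.0667 in the exact permutation test, as did 7 of the 17 segments in all.

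Shares of members of 1 family thus went in opposite directions. Trbv12-1 was higher and Trbv12-2 lower, and the Trbv12 family as a whole took 5.33% ± 0.74 (SD) and 5.06% ± 0.34 of Trbv reads (p = 0.6, exact permutation test). The share of Trbv13-2 was higher and that of Trbv13-3 lower, and the Trbv13 family took 22.1% ± 0.89 and 21.9% ± 0.57 (p = 0.6, exact permutation test). As levels, the groups overlapped for Trbv12-1 (log2 difference 0.31 ± 0.20, SE) and for Trbv13-2 (0.03 ± 0.09). They did not overlap for Trbv12-2 (-0.34 ± 0.12) and Trbv13-3 (-0.39 ± 0.13), and edgeR called none of these segments. These segments lie close together on the chromosome, with Trbv13-1 between Trbv12-1 and Trbv12-2 and the pseudogene Trbv12-3 between Trbv13-2 and Trbv13-3. The pairs were identical at 88.3% and 90.6% of aligned bases. Of their 50-base stretches, 0% for Trbv12-1 and 1.19% for Trbv12-2 occur in another gene, the latter in Trbv12-3. For Trbv13-2 and Trbv13-3, 0.344% each occur in the other of the pair. Whether reads were assigned to the wrong family member was not tested.

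Trbv30 (ENSMUSG00000076481) was the only V segment called in the per-gene test. It had 30 and 31 reads in the controls and 11, 11, 11 and 20 in Cmtr1 cKO 1 to 4, or 2.62 and 3.01 CPM against 1.02, 0.998, 1.16 and 1.72 CPM. All 4 Cmtr1 cKO libraries were lower, with a log2 difference of -1.18 ± 0.32 (SE; edgeR adjusted p = 0.0355). Its share of Trbv reads went from 0.563% and 0.660% to 0.253%, 0.236%, 0.261% and 0.356%. The difference was -1.40 to -1.07 over the omissions of 1 library, but the call was kept only without Cmtr1 cKO 4. With the covariate it was -0.58 (edgeR adjusted p = 0.531). Over all the alternatives the adjusted p ran from 0.0017, with the replicate block, to 0.531.

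Over the 21 Trbv segments tested, 9 log2 differences were positive and 12 negative, with a median of -0.04, so the V segments as a class did not move in 1 direction. Groups of Trbv levels were apart for 2 higher and 6 lower, beside 18.2% and 20.8% (39.0% in either direction) over all genes tested.

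**Figure D4:**
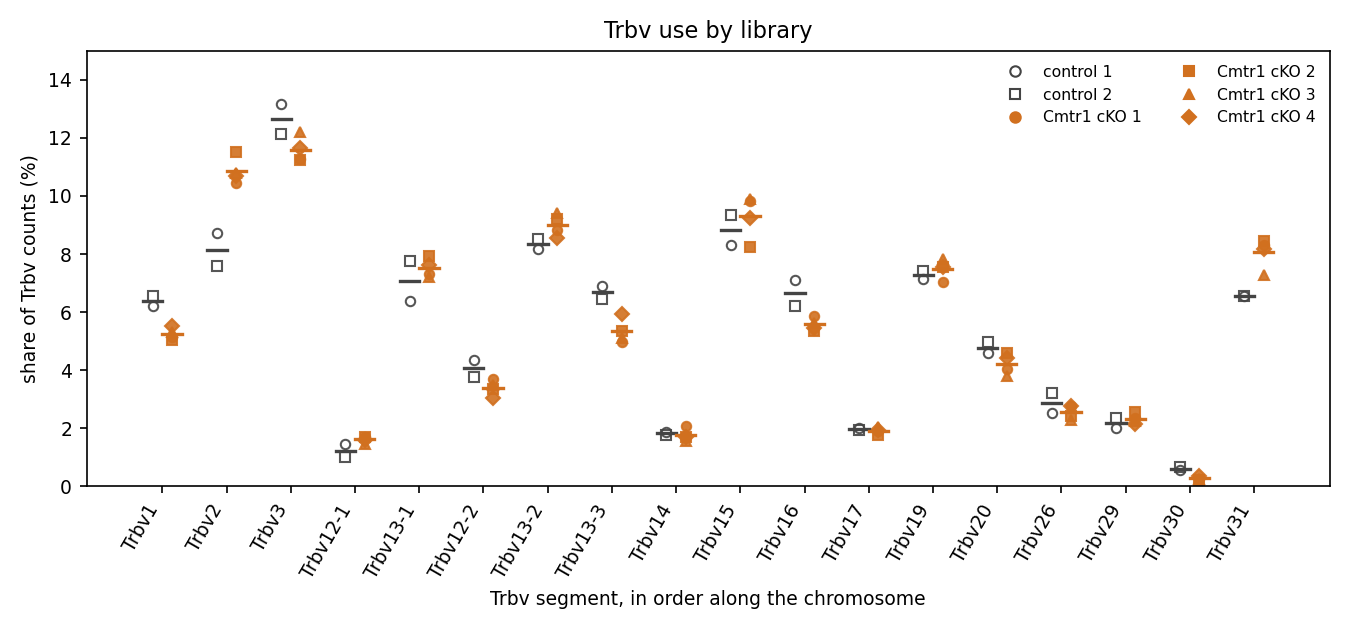
Share (%) of Trbv reads of the 17 segments that average at least 1% and of Trbv30, in order along the chromosome, with open symbols for the 2 controls, filled symbols for the 4 Cmtr1 cKO libraries and lines for group means. Trbv2 (means 8.16% and 10.9%) and Trbv31 (6.56% and 8.06%) lie higher in Cmtr1 cKO, and Trbv1, Trbv13-3 and Trbv16 lie lower.

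The V profile as a whole was compared by the percentage of Trbv reads that would have to change segment to make 2 libraries alike. It was 3.31% to 4.69% for the 6 pairs within Cmtr1 cKO and 4.98% between the controls. For the 8 pairs of a control with a Cmtr1 cKO library it was 5.53% to 8.60%, above every pair within a group. The lowest of these pairs was control 2 with Cmtr1 cKO 4. Chi-square per degree of freedom, which is near 1 where libraries differ by counting error alone, was 0.891 to 1.41 within Cmtr1 cKO, 1.63 between the controls and 3.09 to 4.79 between the groups. Pairs share libraries, so these are descriptions with no test.

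For the shares of J reads the same measure did not separate as far. Reads across a V-J joint or a J-C splice are in no count, so these shares do not measure J use in the assembled receptor mRNA. Trbj2-6, annotated as a pseudogene, averaged 72 reads per library, against 17.3 for Trbj2-5. The percentage of Trbj reads that would have to change segment was 4.75% to 7.83% within Cmtr1 cKO, 8.01% between the controls and 7.26% to 11.8% between groups. The range of pairs between groups thus overlapped that of pairs within them.

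**Figure D5:**
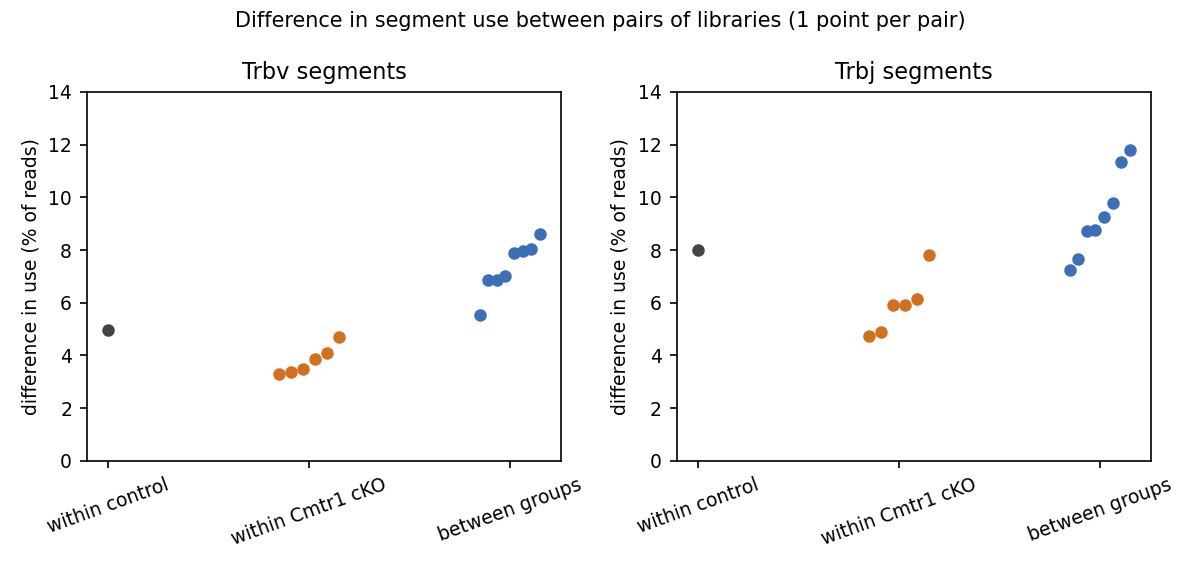
Difference in segment use (% of reads) for each pair of libraries, for Trbv (left) and Trbj (right), with pairs grouped as within control, within Cmtr1 cKO and between groups, and sorted within each kind. For Trbv every pair between groups (5.53% to 8.60%) is above every pair within a group, and for Trbj the kinds overlap.

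The genes that work with the locus were read from lists. Over all genes tested, 4.66% were called higher and 6.77% lower (11.4% in either direction), and the few calls in each list are read against those shares. Of 6 tested partners of the receptor complex 1 was lower and 0 higher: Cd247, the zeta chain that carries signalling motifs, had 427 and 428 CPM in control libraries against 339, 330, 368 and 357 CPM in Cmtr1 cKO (-0.29 ± 0.07, edgeR adjusted p = 0.0276). Cd3e, another signalling chain, had a log2 difference of -0.14 ± 0.08 (adjusted p = 0.225), and Trac, the constant gene of the partner alpha chain, one of -0.21 ± 0.08 (adjusted p = 0.112). The median of the list was -0.18.

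Of 10 tested V(D)J recombination genes 1 was lower: Lig4, the ligase that seals the joints, had 14.7 and 14.8 CPM against 8.24, 9.25, 10.8 and 10.2 CPM (-0.61 ± 0.15, edgeR adjusted p = 0.0231). Rearrangement of the beta locus takes place in the thymus, and these are peripheral cells in which the recombinase genes Rag1 and Rag2 were at or near 0. The median of that list was 0.0011.

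Of 9 tested factors of the beta enhancer and locus architecture 2 were higher and 1 lower, with a median of -0.07. Gata3, a transcription factor of the T lineage, rose by 0.33 ± 0.08 (edgeR adjusted p = 0.0287), from 38.2 and 39.4 CPM to 45.7 to 50.4 CPM. Runx1, which binds the beta enhancer, rose by 0.42 ± 0.12 (adjusted p = 0.047), from 129 and 130 CPM to 200, 191, 163 and 142 CPM in Cmtr1 cKO 1 to 4. Rad21, a cohesin subunit, fell by 0.30 ± 0.08 (adjusted p = 0.0325). Of 7 naive T cell markers 1 was lower, Ccr7, the lymph node homing receptor (-0.36 ± 0.10, adjusted p = 0.0433). Lef1 (0.19) and Cd4 (0.10) had positive log2 differences without a call, those of the other markers were negative, and the list's median was -0.12. With the outside-exon percentage as a covariate, the calls of Cd247 (log2 difference -0.22), Lig4 (-0.43), Runx1 (0.04), Rad21 (-0.12) and Ccr7 (-0.10) ended, and that of Gata3 (0.39) did not. Without control 1 or without control 2, 1 control is left, so calls of these 6 genes and of Ighm were not read there. The call of Gata3 ended without Cmtr1 cKO 2, without Cmtr1 cKO 3 and with scaling to Trbv counts. Over the omissions of 1 library its log2 difference was 0.31 to 0.36.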

How the data were processed

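Ribosomal RNA-depleted total RNA was sequenced in 2 control and 4 Cmtr1 cKO libraries. The deposited values are raw read counts per gene in the layout of the STAR gene table, made by the authors with STAR 2.5.2b on GRCm38 (mm10), per the submitters' processing notes; neither the counting annotation nor the read length is stated. Of the 3 count columns, the stranded one on each gene's own strand was taken. Rows that name no gene (52.1% to 62.0% of reads) stayed out of library sizes and tests. Identifiers were matched without version to GENCODE vM21 (46488 of 46983, 98.9%), which gave symbols, coordinates and sequences. In this annotation Trbv4 and Trbv5, and the pseudogenes Trbv8 and Trbv10, overlap another gene on the same strand, and reads in the overlap are in no count.

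Genotype was tested with edgeR 4.0.16 (R 4.3.3) by its quasi-likelihood test with filterByExpr, TMM scaling and robust fitting over 12748 genes, adjusted by Benjamini-Hochberg, with calls at an adjusted p under 0.05. SE is the log2 difference divided by the root of F, and CPM are TMM-scaled. Shares were tested by exact permutation over 15 splits, unadjusted, for 17 Trbv and 14 Trbj segments, families and clusters. Intervals (Wilson, 95%) and the limit of 3 counts at a count of 0 cover counting error only. On simulated counts for 12563 genes the edgeR test recovered 41.8%, 86.4% and 98.5% of those given log2 changes of 0.5, 1 and 2, and called 15 of 12365 left unchanged. The common coefficient of variation was 9.59%.

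Whether each library is a separate mouse is not stated, and p-values then reflect only the spread among these samples, possibly technical. Replicates of a group all differed by more than sampling noise (chi-square over its degrees of freedom, all genes). It was 1.87 for Cmtr1 cKO 1 with 2, 6.19 between the controls and 17.7 to 49.4 for the other Cmtr1 cKO pairs. Cmtr1 cKO 1 and 2, which had the most J reads per V read, were thus the most alike. Named are all Trbd, Trbj and Trbc genes with a mean of at least 10 counts, Trbv genes with a mean of at least 1% of Trbv counts, every called member, and listed genes where called or set beside a value of the locus. The members and lists were chosen with earlier results of these data known. Alternatives were DESeq2 1.42.0, no filter on low counts, unstranded counts, a replicate block, the percentage of uniquely mapped reads outside exons as a covariate, scaling to Trbv counts, shares per exon base or without pseudogenes, and omission of each library. The ratio of J to V reads and its alternatives were added after seeing the data.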

Additional observations from a re-analysis of the deposited data

Results flagged for a closer look

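Among 71 levels and shares of the segments examined within the 4 Cmtr1 cKO libraries, 4 had 1 library far from the other 3, where chance alone marks about 1 in 20. Trbj1-1 stood at 3.28 CPM in Cmtr1 cKO 3 against 3.96 to 4.07 CPM in the others. Its share of Trbj reads was 3.88% in Cmtr1 cKO 4 against 3.08% to 3.17%. The share of Trbj1-2 was 7.12% in Cmtr1 cKO 2 against 5.96% to 6.16%. The share of Trbj1-6 was 9.38% in Cmtr1 cKO 2 against 11.1% to 11.2%.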

How the results depend on the processing

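Counts of calls moved with the processing. Genes called higher numbered 594, and 1167 without a filter on low counts, 2394 with the replicate block, 320 with the outside-exon percentage as a covariate and 148 when scaled to summed Trbv counts. Genes called lower numbered 863, and 2448, 346 and 293 with the block, the covariate and the Trbv scaling. Members called higher went from 2 to 5 without a filter, 1 with unstranded counts, 6 with the block, 1 with the covariate and 0 with the Trbv scaling. Members called lower went from 1 to 0 with DESeq2, the covariate and the Trbv scaling, 3 without a filter and 6 with the block. The cause was not tested. Leaving out 1 library gave 39 to 1940 genes higher, 154 to 1940 lower, 0 to 6 members higher and 0 to 5 lower. Same-numbered libraries had deviations correlated at 0.125 and -0.131 (0.131 and -0.125 when crossed). With 2 controls, the deviations from their mean are equal with opposite signs. The crossed values therefore repeat the same-numbered ones with the sign changed, and they cannot show whether the numbers give a pairing.

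Signs changed only for segments with no call. With the block they were -0.045 for Trbv13-1, -0.051 for Trbv13-2, -0.13 for Trbv15, 0.048 for Trbj1-1 and 0.20 for Trbj2-4 (log2), and in V use 0.082 for Trbv14 and -0.0067 percentage points for Trbv19. With unstranded counts they were -0.0098 for Trbv15 and -0.0028 for Trbj2-1. With the covariate they were 0.10 for Trbv17, 0.19 for Trbv19, 0.063 for Trbv26, -0.14 for Trbj1-2, 0.19 for Trbd2, -0.022 for Trbj2-1, -0.20 for Trbj2-2, -0.081 for Trbj2-3, -0.23 for Trbj2-7 and 0.18 for Trbc2. With the Trbv scaling they were 0.037 for Trbv19, 0.051 for Trbj1-1, 0.052 for Trbj2-4, 0.018 for Trbj2-5 and 0.053 for Trbc2.

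Over the omissions of 1 library, log2 differences ran from -0.089 to 0.16 for Trbv13-1, -0.053 to 0.088 for Trbv15, -0.087 to 0.036 for Trbv19, -0.073 to 0.13 for Trbv29, -0.087 to 0.065 for Trbj1-1, -0.063 to 0.077 for Trbj2-1, -0.19 to 0.14 for Trbj2-4, -0.16 to 0.041 for Trbj2-5, -0.0093 to 0.18 for Trbj2-7 and -0.078 to 0.035 for Trbc2. V use differed by -0.22 to 1.14 percentage points for Trbv13-1, -0.17 to 0.011 for Trbv14, -0.033 to 0.99 for Trbv15, -0.67 to 0.045 for Trbv26 and -0.035 to 0.32 for Trbv29. The Trbj1 share differed by 3.69 to 7.70 and the Trbc1 share by 1.93 to 3.39 percentage points, and the J reads per 100 V reads by 5.79 to 9.40. DESeq2 called Trbj1-3 and Trbj1-4 higher, in place of Trbj1-4 and Trbj1-6. With 2 controls no permutation p can fall under 0.0667, and segments with few reads, such as Trbv30, carry wide counting error.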
